A study of Mus musculus with 54 samples.

Results

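The organic anion and organic cation transporters are membrane proteins of the Slco and Slc22a gene families, and their messenger RNA was examined in hearts and livers of mice with altered accuracy of mitochondrial protein synthesis. Members were all genes whose name begins with Slco or Slc22a followed by a number and whose gene type in the deposited tables is protein-coding. This rule found 39 genes, 14 Slco and 25 Slc22a, among the 54356 genes of each table. Hearts and livers came from male C57BL/6 mice that were 20 weeks old and had eaten a high-fat diet with 42% of its energy from fat. The groups were Mrps12+/+, the wild type, Mrps12ep/ep, homozygous for the error-prone allele of the mitochondrial ribosomal protein MRPS12, and Mrps12ha/ha, homozygous for its hyper-accurate allele. Both alleles are carried in every cell of the body, so an effect that starts in 1 tissue cannot be told apart from one that starts in another. Each group held 3 mice per tissue, all 3 groups ate the same diet, and mice on another diet were not analysed here.

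Slco genes encode the organic anion transporting polypeptides, which take up bile acids, bilirubin, steroid conjugates, thyroid hormones, prostaglandins and many drugs without a direct need for ATP. Slc22a genes encode the organic cation transporters, the organic anion transporters and the carnitine and zwitterion transporters, which move small charged metabolites and drugs across the plasma membrane. In liver these proteins stand at the blood side of the hepatocyte and begin the clearance of circulating compounds. In heart the best known member is Slc22a5, which brings in the carnitine needed to carry long-chain fatty acids into mitochondria.

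Values are normalized counts, the authors' read counts per gene after scaling for library depth, with 1 column per mouse. Hearts held 11202864 to 51480512 reads on genes and livers 21238166 to 81518015, and the shallowest heart was that of Mrps12ha/ha mouse 2. Heart and liver were normalized separately, so their levels are set side by side without a test. Several libraries stood apart by marker genes. The summed level of 8 acute phase genes was 2345320 in the liver of Mrps12+/+ mouse 3 and between 339746 and 394321 in the other livers, and 6 cholangiocyte markers were also highest there (12055 against 1338 to 2658). Skeletal muscle markers (9 genes) summed to 22323 and 27099 in the livers of Mrps12+/+ mice 1 and 2 and to at most 219 in the others. Atrial markers (8 genes) summed to 402177 in the heart of Mrps12ep/ep mouse 2, to 98851 to 173307 in 3 other hearts and to 3099 to 12120 in the remaining 5, among them all Mrps12ha/ha hearts. Erythroid markers (6 genes) reached 464536 and 1412562 in the hearts of Mrps12ha/ha mice 1 and 3 and at most 235749 in the other hearts, Mrps12ha/ha mouse 2 included. Levels of the tissues' own markers matched the labels, since Alb lay between 2890194.7 and 4510912.2 in every liver and Myh6 between 994852.3 and 2130353.7 in every heart. In the liver of Mrps12ha/ha mouse 3 Myh6 was nevertheless 4288.9, against at most 264.1 in the other livers. Mrps12 itself, which carries point mutations and is not deleted, ranged from 1027.6 to 1396.9 in hearts and from 1507.7 to 1914.5 in livers. Whether a heart and a liver with the same number came from 1 mouse was not used.

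The livers transcribed a few members at high levels and the hearts a different set. Per kilobase of the longest coding transcript, Slco1b2 was the most abundant member in liver, with 36.4% of the family's summed level. Among the other members described here Slco1a1 held 8.15%, Slc22a18 held 7.91%, Slc22a30 held 6.01% and Slco2b1 held 5.8%. In heart Slco3a1 led with 37.7%, followed by Slc22a5 with 14.9%, Slco2b1 with 13%, Slc22a3 with 6.63% and Slc22a17 with 5.55%. The family's sum per kilobase ran from 30332 to 46412 over the 9 livers and from 1751 to 2404 over the 9 hearts. Slco genes made up 44.7% to 57.6% of it in livers and 50.4% to 61.3% in hearts. Neighbours in these orders often overlapped between mice. In liver Slco1a1 (808.8 to 5750 per kilobase), Slc22a18 (2342 to 3249), Slc22a30 and Slco2b1 could not be put in order in every mouse, while Slco1b2 (10740 to 17560) stood above all 4. In heart Slc22a5 (260.0 to 351.1 per kilobase) and Slco2b1 (209.9 to 330.9) overlapped, and Slco3a1 (504.6 to 1011) lay above both.

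**Figure D1:**
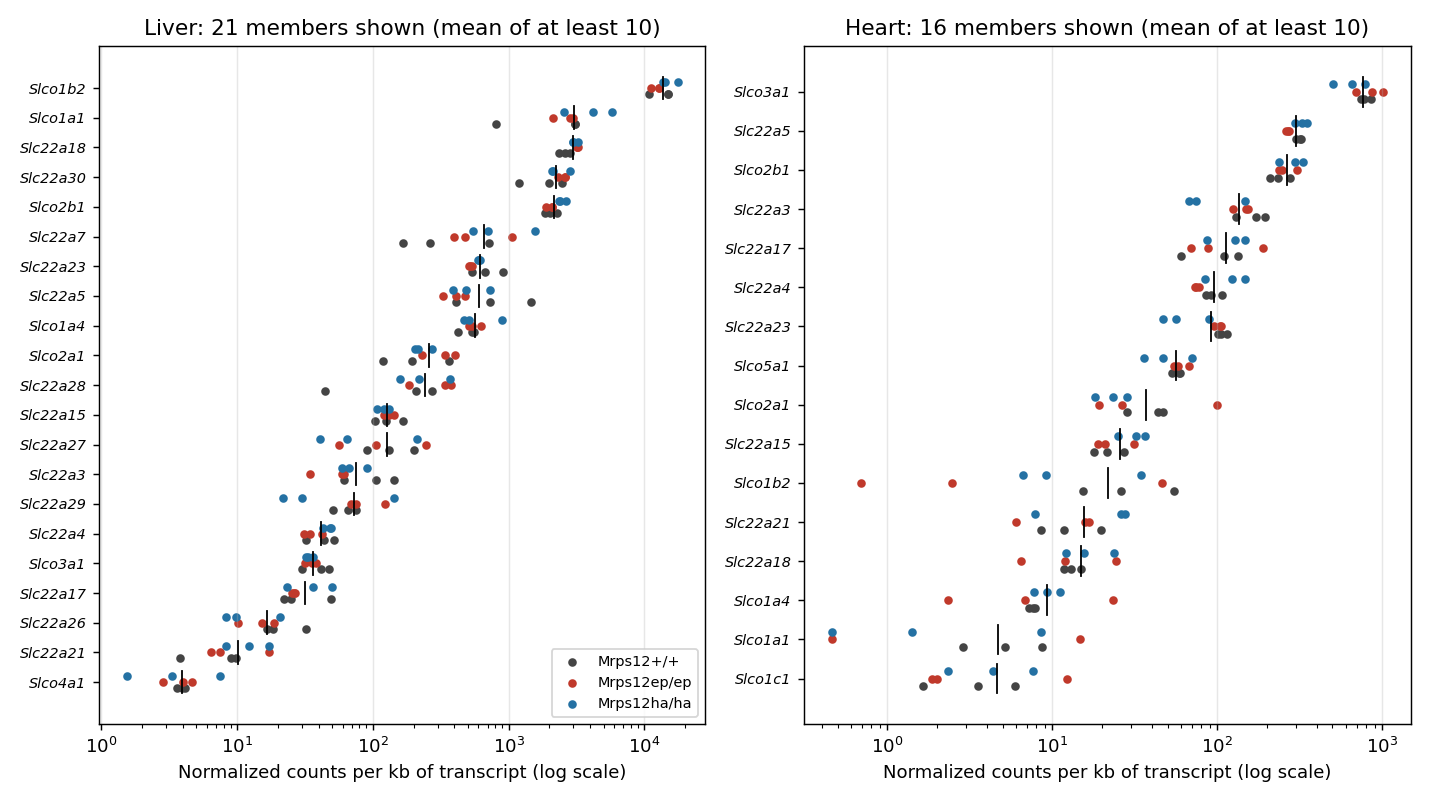
Levels of members that reached a mean of 10, 21 in liver (left) and 16 in heart (right), as normalized counts per kilobase of transcript on a log axis. Each dot is 1 mouse, coloured by genotype, and the black bar is the mean of the 9 mice. Slco1b2 leads in liver and Slco3a1 in heart, and the dots of Slco1b2 and Slco1a1 are spread widely in heart, where 1 Mrps12ep/ep mouse with 0 for Slco1a1 cannot be drawn.

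A gene was tested when its mean over the 9 mice of a tissue was at least 10, which left 17 members in heart and 22 in liver. Because a gene can pass through 1 high group, the tested members do not stand for the whole family. In heart 15 members lay below this level and 7 were at 0 in every mouse. In liver 12 lay below and 5 were at 0 in every mouse.

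Sequence upstream of the gene start was read for the members that matched a RefSeq entry, and 34 of the 39 did (GRCm38.p6). Among the members without an entry were Slc22a7, Slc22a21, Slco3a1 and Slco5a1. Shown are the 250 bases before the start of the 2 liver anion carriers Slco1b2 and Slco1a1 and of Slc22a4, Slc22a5 and Slc22a23, on which the heart comparisons turn. Capitals in the Slco genes mark TATAAA, the letters of the TATA box, at any distance from the start. They also mark GTTAAT there, part of the site of the liver factor HNF1. In the Slc22a genes they mark GGGCGG (the GC box, bound by Sp1) and CACGTG (the E-box). Each was searched on both strands.
Slco1b2 (chr6:141629268-141629517, plus strand): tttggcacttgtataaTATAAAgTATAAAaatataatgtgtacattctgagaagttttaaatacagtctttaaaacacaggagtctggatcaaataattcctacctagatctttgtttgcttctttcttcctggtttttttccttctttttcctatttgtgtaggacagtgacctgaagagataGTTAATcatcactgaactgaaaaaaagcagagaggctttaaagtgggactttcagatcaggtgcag
Slco1a1 (chr6:141946963-141947212, minus strand): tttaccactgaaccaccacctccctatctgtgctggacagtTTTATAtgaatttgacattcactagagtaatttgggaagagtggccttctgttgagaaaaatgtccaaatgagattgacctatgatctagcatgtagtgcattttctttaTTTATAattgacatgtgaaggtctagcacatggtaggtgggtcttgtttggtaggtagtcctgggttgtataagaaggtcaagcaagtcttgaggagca
Slc22a4 (chr11:54028105-54028354, minus strand): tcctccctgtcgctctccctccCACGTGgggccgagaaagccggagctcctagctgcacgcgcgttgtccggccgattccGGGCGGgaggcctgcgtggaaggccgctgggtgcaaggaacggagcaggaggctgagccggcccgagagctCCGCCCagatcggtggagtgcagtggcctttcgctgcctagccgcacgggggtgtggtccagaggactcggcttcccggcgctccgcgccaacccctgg
Slc22a5 (chr11:53891704-53891953, minus strand): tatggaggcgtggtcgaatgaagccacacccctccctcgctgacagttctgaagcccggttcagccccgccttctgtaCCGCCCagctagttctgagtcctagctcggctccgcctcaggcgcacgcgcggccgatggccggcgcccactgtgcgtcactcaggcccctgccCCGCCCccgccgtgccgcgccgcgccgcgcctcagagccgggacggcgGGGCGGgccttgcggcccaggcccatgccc
Slc22a23 (chr13:34345219-34345468, minus strand): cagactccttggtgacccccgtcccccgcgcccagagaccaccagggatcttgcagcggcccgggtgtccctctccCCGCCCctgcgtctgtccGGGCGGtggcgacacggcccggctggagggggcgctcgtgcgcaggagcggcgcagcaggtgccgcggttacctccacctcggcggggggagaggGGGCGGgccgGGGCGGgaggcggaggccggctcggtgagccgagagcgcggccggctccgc

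TATAAA was found upstream of 5 of the 34 matched members, Slco1b2, Slco1a1, Slco1a5, Slco2a1 and Slc22a22, and in 12.4% of 32851 promoters of the same length. GGGCGG was found upstream of 8 members, among them Slc22a4, Slc22a5, Slc22a23, Slc22a15 and Slco2a1, and in 32.7% of all promoters. GTTAAT was found in 4 members, Slco1b2, Slc22a29, Slc22a6 and Slc22a8, of which Slc22a6 and Slc22a8 were near 0 in liver, and in 6.43% of all promoters. CACGTG was found in Slc22a4 and Slc22a16, of which Slc22a16 was at 0 in every library, and in 6.02% of all promoters. In this order the members' shares were 14.7%, 23.5%, 11.8% and 5.88%. They were counted per gene, the 34 genes having 39 promoters, while the shares of all promoters were counted per promoter. In Slco1b2 the GTTAAT begins 66 bases before the start and the TATAAA matches lie 234 and 227 bases before it. Those of Slco1a1 lie 209 and 99 bases before its start. The promoter of Slc22a23 holds 4 GC boxes, that of Slc22a5 holds 3 and that of Slc22a4 holds 2, at 170 and 99 bases before the start. These matches describe letters only.

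In the heart no member passed the test across all genes in any of the 3 comparisons. The lowest adjusted p of a member, from limma with Benjamini-Hochberg adjustment over 16057 genes, was 0.191 in Mrps12ha/ha against Mrps12+/+, 1 in Mrps12ep/ep against Mrps12+/+ and 0.236 in Mrps12ha/ha against Mrps12ep/ep. Of all genes tested, 0.0311%, 0% and 0.0249% were called in the same order. At an unadjusted p under 0.05 there were 2, 0 and 4 of 17 members, that is 11.8%, 0% and 23.5%, against 19.7%, 1.69% and 17.9% of all genes. Groups did not overlap for 2, 2 and 3 members, 11.8%, 11.8% and 17.6%, against 21.2%, 8.03% and 16.6% of all genes. The members' median log2 fold change was 0.05, -0.07 and 0.21, and that of all genes -0.02, -0.01 and -0.02. limma-voom on the reads recovered from the tables, added after the data were seen, also called 0 members. For every member whose groups did not overlap the exact two-sided permutation test gave p = 0.1, the smallest value that the 20 divisions of 6 mice allow.

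These counts changed without the heart of Mrps12ha/ha mouse 2. When it was left out 3 members were called in Mrps12ha/ha against Mrps12+/+ and 5 in Mrps12ha/ha against Mrps12ep/ep, 17.6% and 29.4% of those tested, while 27% and 23.2% of all genes were called. With weights estimated for each library the members called were 5 and 7, 29.4% and 41.2%, beside 34.7% and 39.3% of all genes. Only 17 members were tested, so their shares move in large steps. Differences between these shares and those of all genes were not tested. This library was also the shallowest, and its erythroid sum of 199296 lay within the range of the other genotypes.

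In heart the 2 members at an unadjusted p under 0.05 in Mrps12ha/ha against Mrps12+/+ were Slc22a23 and Slc22a3, both with lower values in Mrps12ha/ha. Slc22a23, on chromosome 13 (GRCm38, 34179158 to 34345182, minus strand), encodes a transporter with no settled substrate. Its values were 635.5, 719.0 and 663.5 in Mrps12+/+, 596.3, 651.8 and 661.1 in Mrps12ep/ep and 294.5, 555.7 and 352.0 in Mrps12ha/ha hearts. Mice 1 and 3 of Mrps12ha/ha lay far below every other heart and mouse 2 just below the lowest of them. Against Mrps12+/+ this was a 1.74-fold lower level (log2 fold change -0.80 ± 0.21 SE, adjusted p = 0.191) and against Mrps12ep/ep a 1.64-fold lower one (log2 fold change -0.72 ± 0.21 SE, adjusted p = 0.236). Without Mrps12ha/ha mouse 2 the log2 fold changes were -1.06 ± 0.12 (adjusted p = 0.00271) and -0.98 ± 0.12 (adjusted p = 0.00344). Without Mrps12ha/ha mouse 1, the lowest, they were -0.60 (adjusted p = 0.54) and -0.52 (adjusted p = 0.533).

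Slc22a3 (chromosome 17, 12418960 to 12507704, minus strand) encodes the organic cation transporter OCT3, a low-affinity carrier of monoamines such as noradrenaline. Normalized counts were 457.3, 687.0 and 602.5 in Mrps12+/+, 521.1, 434.9 and 540.3 in Mrps12ep/ep and 235.6, 513.4 and 260.7 in Mrps12ha/ha hearts. As with Slc22a23, mice 1 and 3 of Mrps12ha/ha were low and mouse 2 lay among the other hearts, so the groups overlapped. The differences did not pass the test (against Mrps12+/+ log2 fold change -0.86 ± 0.28 SE, adjusted p = 0.213, and against Mrps12ep/ep log2 fold change -0.65 ± 0.28 SE, adjusted p = 0.274). Leaving out Mrps12ha/ha mouse 2 gave -1.21 ± 0.19 (adjusted p = 0.00469) and -1.0 ± 0.19 (adjusted p = 0.00914), and leaving out mouse 1 gave -0.65 (adjusted p = 0.54) and -0.44 (adjusted p = 0.584). The erythroid sums were highest in the same 2 Mrps12ha/ha hearts, and so were the sums of 10 endothelial markers, 68555 and 61307 against 35638 to 48948 in the other hearts. The part of these cells in either difference was not tested. In these bulk tissues fewer cells of a type and less RNA per cell cannot be told apart.

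**Figure D2:**
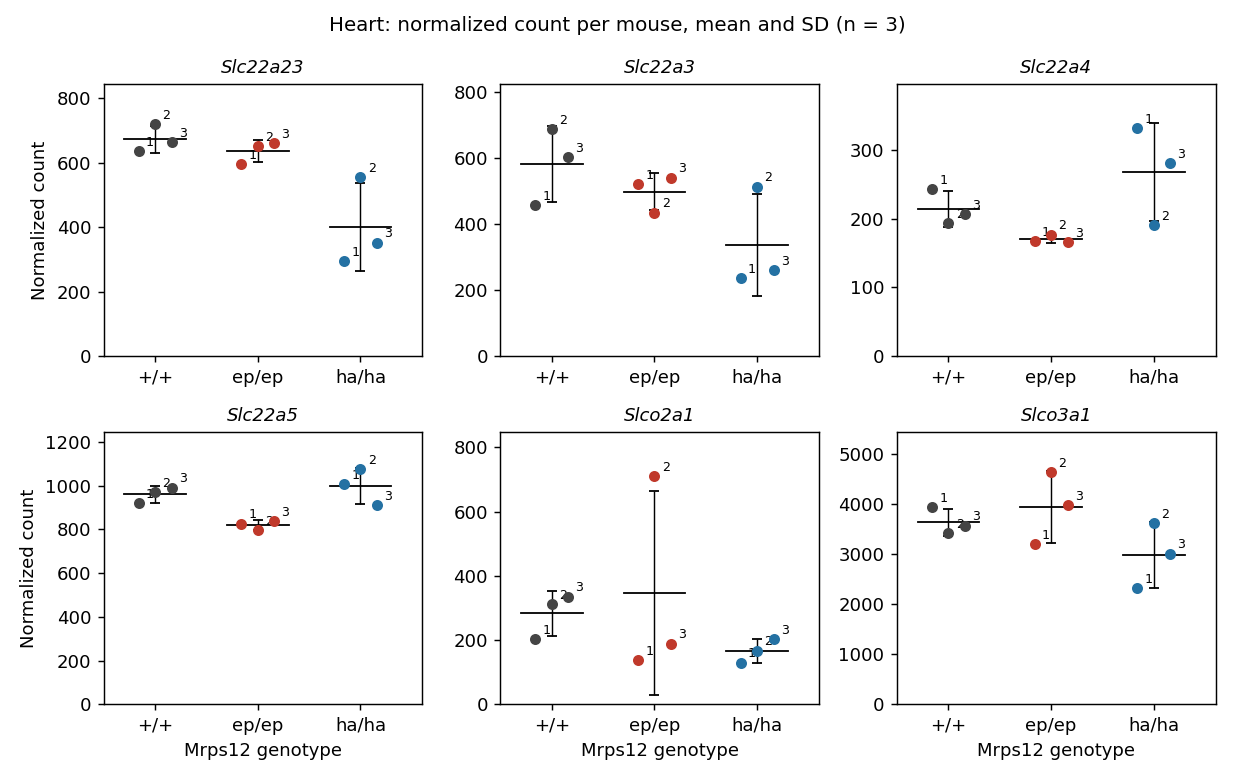
Normalized counts of 6 members in hearts by Mrps12 genotype. Dots are mice with their number, horizontal bars the mean and whiskers the SD of 3 mice. Slc22a23 and Slc22a3 are lower in Mrps12ha/ha mice 1 and 3 than in mouse 2, Slc22a4 and Slc22a5 are lowest in Mrps12ep/ep, and Slco2a1 is high in Mrps12ep/ep mouse 2.

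The carnitine transporters Slc22a5 and Slc22a4 were lowest in Mrps12ep/ep hearts. Slc22a5 (OCTN2, chromosome 11, 53864542 to 53891660, minus strand) is the high-affinity carnitine carrier. Counts were 918.8, 969.9 and 991.8 in Mrps12+/+, 826.2, 796.2 and 837.3 in Mrps12ep/ep and 1006.9, 1075.2 and 911.5 in Mrps12ha/ha hearts. All 3 Mrps12ep/ep hearts lay below every other heart, and of the 17 members this gene had the narrowest spread within a genotype. The difference from Mrps12+/+ was 1.17-fold (log2 fold change -0.23 ± 0.10 SE, adjusted p = 1), and Mrps12ha/ha exceeded Mrps12ep/ep 1.21-fold (log2 fold change 0.28 ± 0.10 SE, adjusted p = 0.251).

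Slc22a4 (OCTN1, chromosome 11, 53983123 to 54028090, minus strand) carries ergothioneine and, weakly, carnitine. It gave 242.8, 192.9 and 206.3 in Mrps12+/+, 167.4, 176.3 and 165.3 in Mrps12ep/ep and 331.3, 190.3 and 280.1 in Mrps12ha/ha hearts. Again the 3 Mrps12ep/ep hearts were the lowest, and mice 1 and 3 of Mrps12ha/ha were the highest of the 9. The difference of Mrps12ep/ep from Mrps12+/+ was 1.25-fold (log2 fold change -0.33 ± 0.21 SE, adjusted p = 1). Mrps12ha/ha lay 1.53-fold above Mrps12ep/ep (log2 fold change 0.62 ± 0.21 SE, adjusted p = 0.246), and without Mrps12ha/ha mouse 2 the log2 fold change was 0.84 ± 0.16 (adjusted p = 0.00973). Without mouse 1 it was 0.44 (adjusted p = 0.54). The third gene of this cluster, Slc22a21, shares 29.9% of its 31-base words with Slc22a5, so reads may have been divided between them, and it ranged from 20.9 to 95.4 with overlap in every comparison.

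Of 10 listed genes of carnitine synthesis and use, 9 were found and tested in heart, and 0 passed in any comparison. The closest was Aldh9a1, an aldehyde dehydrogenase that takes part in carnitine synthesis. Its counts were 1472.5, 1494.2 and 1481.0 in Mrps12+/+, 1559.2, 1217.8 and 1484.8 in Mrps12ep/ep and 3219.5, 2074.8 and 2630.0 in Mrps12ha/ha hearts, with all 3 Mrps12ha/ha hearts above the rest (log2 fold change 0.81 ± 0.16 SE, adjusted p = 0.164 against Mrps12+/+).

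Slco2a1 (chromosome 9, 102988712 to 103096002, plus strand) is the prostaglandin transporter, which clears prostaglandins from the circulation. Counts were 203.2, 311.5 and 335.2 in Mrps12+/+, 136.7, 710.4 and 188.0 in Mrps12ep/ep and 128.9, 166.1 and 201.9 in Mrps12ha/ha hearts. The heart of Mrps12ep/ep mouse 2 held more than any other, and it was also the heart with the highest atrial sum. Mrps12ha/ha hearts lay below all Mrps12+/+ hearts (log2 fold change -0.76 ± 0.53 SE, adjusted p = 0.406), by 1.7-fold. The 3 Mrps12ha/ha hearts were among those with low atrial and mesothelial sums (6215 to 12120 and 320 to 532, against 9506 to 173307 and 854 to 1767 in Mrps12+/+), and the part of these cells was not tested. In the fit without Mrps12ep/ep mouse 2 the same difference was -0.76 ± 0.26 (adjusted p = 0.217), with a smaller error because the groups share 1 estimate of the spread.

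Slco3a1, a widely expressed carrier of prostaglandins and other anions, was the most abundant member of the heart. Its values were 3936.2, 3417.6 and 3563.3 in Mrps12+/+, 3194.7, 4640.9 and 3974.0 in Mrps12ep/ep and 2315.7, 3621.1 and 3004.8 in Mrps12ha/ha hearts, and the genotypes overlapped in the comparison of Mrps12ha/ha with Mrps12+/+. Slco5a1, with no settled substrate, gave 505.5, 455.1 and 501.9 in Mrps12+/+, 489.4, 468.6 and 570.3 in Mrps12ep/ep and 401.3, 601.0 and 307.1 in Mrps12ha/ha hearts. Both were lower in Mrps12ha/ha mice 1 and 3 than in mouse 2, as Slc22a23 and Slc22a3 were. Slco2b1, a carrier of steroid sulphates and statins, gave 1209.9, 919.7 and 1028.2 in Mrps12+/+, 1328.4, 1042.1 and 1084.3 in Mrps12ep/ep and 1295.9, 1041.9 and 1449.5 in Mrps12ha/ha hearts, with overlap in all comparisons. Of 12 prostaglandin genes 11 were tested in heart and 0 passed. Ptgir, the prostacyclin receptor, gave 155.9, 118.5 and 95.0 in Mrps12+/+, 212.0, 165.3 and 161.6 in Mrps12ep/ep and 327.7, 256.7 and 213.7 in Mrps12ha/ha hearts, in that order without overlap (log2 fold change 1.11 ± 0.24 SE, adjusted p = 0.176 for Mrps12ha/ha against Mrps12+/+).

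Members typical of liver were found at low and very uneven levels in hearts. Slco1b2, a bile acid and bilirubin carrier of the mouse hepatocyte (chromosome 6, 141629518 to 141686646, plus strand), gave 180.8, 51.0 and 86.2 in Mrps12+/+, 153.5, 2.3 and 8.2 in Mrps12ep/ep and 22.1, 114.8 and 30.4 in Mrps12ha/ha hearts. Mrps12ep/ep alone held the lowest value and the second highest. The largest member difference in heart by size was that between Mrps12ep/ep and Mrps12+/+ for this gene, and its error was large (log2 fold change -2.49 ± 1.25 SE, adjusted p = 1). Slco1a1, a hepatocyte anion carrier, gave 33.6, 11.2 and 20.1 in Mrps12+/+, 57.5, 0.0 and 1.8 in Mrps12ep/ep and 1.8, 33.2 and 5.5 in Mrps12ha/ha hearts. The 4 hearts with the highest Slco1b2, Mrps12+/+ mice 1 and 3, Mrps12ep/ep mouse 1 and Mrps12ha/ha mouse 2, were also the 4 with the highest sums of 15 hepatocyte markers. Those sums ran from 7993 to 21711 in Mrps12+/+, 2520 to 17793 in Mrps12ep/ep and 4662 to 23055 in Mrps12ha/ha hearts, with 0 of the 15 markers at 0 in every heart. Set against albumin messenger RNA in the same library, Slco1b2 stood at 11.6 to 35.1 per 1000 Alb in hearts and 8.4 to 17.1 in livers, and Slco1a1 at 0 to 7.43 in hearts and 1.09 to 6.03 in livers. The ratio of 35.1 comes from the Mrps12ep/ep heart with 2.3 normalized counts of Slco1b2. The part of hepatocyte RNA in the hearts' values was not tested.

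**Figure D3:**
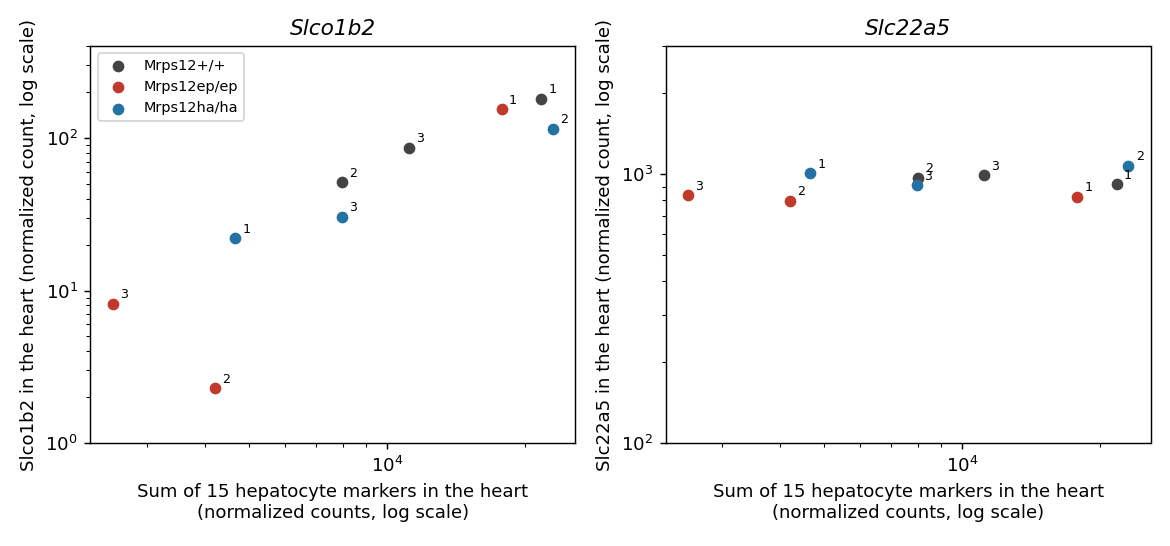
Slco1b2 (left) and Slc22a5 (right) in each heart against the summed level of 15 hepatocyte markers in the same heart, as normalized counts on log axes, with 1 dot per mouse and the mouse number beside it. Slco1b2 runs from 2.3 to 180.8 and is highest in the hearts with the highest hepatocyte sums, while Slc22a5 stays between 796.2 and 1075.2.

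Slco1a4, an anion carrier also known from brain endothelium, did not share this order and gave 30.1, 29.4 and 27.7 in Mrps12+/+, 8.9, 88.7 and 26.3 in Mrps12ep/ep and 29.5, 42.3 and 35.3 in Mrps12ha/ha hearts. It was highest in the heart of Mrps12ep/ep mouse 2, in which Alb was lowest at 65.5. Slc22a17, the lipocalin-2 receptor, was also highest there, with 447.7 against 141.2 to 347.9 elsewhere. The summed macrophage markers (8 genes) were 10815 in that heart and 4908 to 7503 in the others. Slc22a15, Slc22a18 and Slco1c1 were tested too, with means of 169.0, 23.1 and 14.7, and their genotypes overlapped in all 3 comparisons.

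In the liver no member passed the test in any comparison either. The lowest adjusted p of a member over 15314 genes was 0.283 in Mrps12ha/ha against Mrps12+/+, 0.420 in Mrps12ep/ep against Mrps12+/+ and 0.509 in Mrps12ha/ha against Mrps12ep/ep. Of all genes 0.00653%, 0.00653% and 0.00653% were called, 1 gene in each. Unadjusted p was under 0.05 for 3, 3 and 1 of 22 members, 13.6%, 13.6% and 4.55%, against 14.1%, 9.74% and 8.62% of all genes. Groups were apart for 2, 3 and 4 members, 9.09%, 13.6% and 18.2%, where 19.9%, 12.8% and 17.8% of all genes were. The median log2 fold change of the members was 0.17, 0.00 and 0.15, beside -0.02, -0.01 and 0.00 for all genes. limma-voom again called 0 members. The wild-type livers served for both mutants, as the wild-type hearts did, so the 2 differences from wild type are not independent.

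Among the hepatic anion carriers Slco2b1 stood apart in Mrps12ha/ha. Slco2b1 (chromosome 7, 99657804 to 99711340, minus strand) gave 8091.9, 8770.3 and 9945.5 in Mrps12+/+, 8254.9, 9075.7 and 9104.1 in Mrps12ep/ep and 10548.3, 11523.9 and 10288.1 in Mrps12ha/ha livers. All 3 Mrps12ha/ha livers lay above every other liver. The size was 1.21-fold against Mrps12+/+ (log2 fold change 0.28 ± 0.10 SE, adjusted p = 0.283) and 1.22-fold against Mrps12ep/ep (log2 fold change 0.29 ± 0.10 SE, adjusted p = 0.509). Leaving out 1 mouse moved the former between 0.21 ± 0.10 (adjusted p = 0.402), without Mrps12+/+ mouse 1, and 0.35 ± 0.09 (adjusted p = 0.174), without Mrps12+/+ mouse 3.

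Slco1b2 in liver gave 35508.2, 48865.1 and 49541.5 in Mrps12+/+, 37205.7, 42605.9 and 41956.2 in Mrps12ep/ep and 46567.8, 58063.1 and 45135.8 in Mrps12ha/ha livers. The Mrps12ha/ha livers lay above the Mrps12ep/ep livers 1.22-fold (log2 fold change 0.29 ± 0.16 SE, adjusted p = 0.677) and overlapped with Mrps12+/+. Without Mrps12ha/ha mouse 2, the highest liver, the log2 fold change was 0.18 (adjusted p = 0.864). Slco1a1 (chromosome 6, 141907282 to 141946962, minus strand) gave 12000.0, 12035.5 and 3157.5 in Mrps12+/+, 11139.8, 8287.2 and 11581.0 in Mrps12ep/ep and 10046.1, 22448.5 and 16402.8 in Mrps12ha/ha livers. Its lowest value was that of Mrps12+/+ mouse 3, the liver with the high acute phase sum, and its highest that of Mrps12ha/ha mouse 2. Slco1a4 gave 2041.5, 2125.9 and 1614.2 in Mrps12+/+, 2064.1, 2404.6 and 1944.2 in Mrps12ep/ep and 3448.7, 1799.2 and 1945.3 in Mrps12ha/ha livers, highest in Mrps12ha/ha mouse 1. Of the 31-base words of these genes, 4% in Slco1a1 and 5.03% in Slco1a4 occur in another gene, and none in Slco1b2 does. The prostaglandin carrier Slco2a1 gave 2609.6, 1389.2 and 842.2 in Mrps12+/+, 2849.6, 1655.8 and 2428.1 in Mrps12ep/ep and 1544.6, 1946.6 and 1452.5 in Mrps12ha/ha livers, again lowest in Mrps12+/+ mouse 3.

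**Figure D4:**
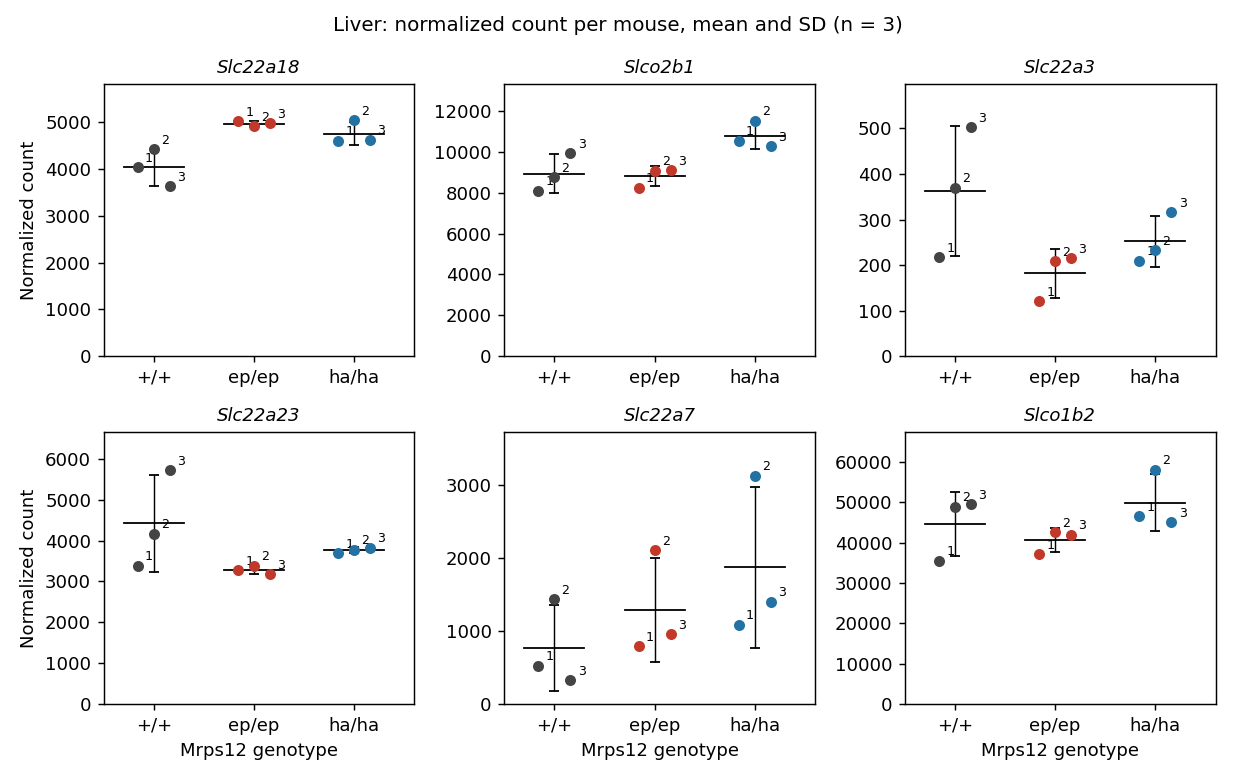
Normalized counts of 6 members in livers by Mrps12 genotype, with dots for mice and their numbers, bars for the mean and whiskers for the SD of 3 mice. Slco2b1 is highest in the 3 Mrps12ha/ha livers, Slc22a18 is lowest in the 3 Mrps12+/+ livers, and Slc22a3 and Slc22a23 are highest in Mrps12+/+ mouse 3.

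Slc22a18 was lowest in Mrps12+/+ livers. This gene (chromosome 7, 143473736 to 143499334, plus strand) lies in the imprinted region around Kcnq1 and encodes an orphan carrier. Values were 4045.3, 4430.4 and 3634.5 in Mrps12+/+, 5028.2, 4920.5 and 4980.4 in Mrps12ep/ep and 4607.8, 5043.2 and 4629.9 in Mrps12ha/ha livers. The Mrps12ep/ep livers agreed within 1.02-fold of each other, and every mutant liver exceeded every Mrps12+/+ liver. Against Mrps12+/+ the difference was 1.24-fold in Mrps12ep/ep (log2 fold change 0.31 ± 0.09 SE, adjusted p = 0.42) and smaller in Mrps12ha/ha (log2 fold change 0.24 ± 0.09 SE, adjusted p = 0.293). Without Mrps12+/+ mouse 3 the log2 fold changes were 0.23 ± 0.09 (adjusted p = 0.61) and 0.17 ± 0.09 (adjusted p = 0.498).

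The cation carrier Slc22a3 was lowest in Mrps12ep/ep livers on average. Slc22a3 gave 216.9, 369.5 and 502.2 in Mrps12+/+, 120.7, 208.9 and 215.3 in Mrps12ep/ep and 209.4, 232.7 and 316.1 in Mrps12ha/ha livers. Its Mrps12ep/ep livers lay 1.94-fold below those of Mrps12+/+ (log2 fold change -0.96 ± 0.34 SE, adjusted p = 0.456), though the highest Mrps12ep/ep value and the lowest Mrps12+/+ value were close, and without Mrps12+/+ mouse 3 the value was -0.68 ± 0.33 (adjusted p = 0.828). The sums of 6 adipocyte markers were 788, 3396 and 8188 in Mrps12+/+, 346, 1269 and 428 in Mrps12ep/ep and 1504, 228 and 853 in Mrps12ha/ha livers, with 0 of the 6 at 0 in every liver. Their part in the values of Slc22a3 was not tested. Slc22a2, a cation transporter known from kidney, reached at most 1.6 in livers and 2.9 in hearts.

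Slc22a7 (OAT2, chromosome 17, 46432183 to 46438457, minus strand) carries cyclic GMP and other small anions and had the widest range over the 9 livers of the 22 tested members, 9.41-fold. Counts were 528.2, 1432.9 and 331.8 in Mrps12+/+, 793.3, 2101.8 and 956.6 in Mrps12ep/ep and 1085.3, 3121.2 and 1403.6 in Mrps12ha/ha livers. The mean of Mrps12ha/ha was above that of Mrps12+/+ (1870 against 764, log2 fold change 1.41 ± 0.58 SE, adjusted p = 0.325), but the groups overlapped, and without Mrps12+/+ mouse 3 the value was 0.95 ± 0.58 (adjusted p = 0.572). Slc22a23 in liver gave 3390.4, 4167.6 and 5716.7 in Mrps12+/+, 3269.8, 3382.5 and 3178.2 in Mrps12ep/ep and 3696.2, 3780.6 and 3827.3 in Mrps12ha/ha livers. Mrps12ep/ep livers lay below all others (log2 fold change -0.40 ± 0.16 SE, adjusted p = 0.481 against Mrps12+/+), a difference of -0.20 ± 0.10 (adjusted p = 0.849) once Mrps12+/+ mouse 3 was left out. Mrps12ha/ha livers lay above Mrps12ep/ep livers (log2 fold change 0.20 ± 0.16 SE, adjusted p = 0.787), the opposite of the order in heart.

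The carnitine transporters had their lowest means in Mrps12ep/ep in liver as well, with less separation of the groups. Slc22a5 gave 1258.6, 2235.8 and 4448.1 in Mrps12+/+, 1008.9, 1475.9 and 1258.4 in Mrps12ep/ep and 2232.5, 1193.1 and 1481.6 in Mrps12ha/ha livers, with the highest value in Mrps12+/+ mouse 3 and overlap throughout. Slc22a4 gave 98.6, 117.3 and 72.6 in Mrps12+/+, 71.3, 78.8 and 95.4 in Mrps12ep/ep and 97.6, 109.9 and 112.3 in Mrps12ha/ha livers, where Mrps12ha/ha lay just above Mrps12ep/ep (log2 fold change 0.39 ± 0.24 SE, adjusted p = 0.708). Of the 9 carnitine genes tested in liver 0 passed. At an unadjusted p under 0.05, 1 was higher and 1 lower in Mrps12ha/ha against Mrps12+/+. In Mrps12ep/ep against Mrps12+/+ 0 were higher and 2 lower, and in Mrps12ha/ha against Mrps12ep/ep 1 higher and 0 lower. The shares of all genes were 14.1%, 9.74% and 8.62%. Cpt1b was lower in Mrps12ep/ep than in Mrps12+/+ livers (log2 fold change -1.20 ± 0.38 SE, adjusted p = 0.435). It gave 479.2, 706.7 and 566.6 in Mrps12+/+, 181.9, 338.3 and 253.0 in Mrps12ep/ep and 549.8, 183.6 and 283.8 in Mrps12ha/ha livers. Skeletal muscle sums were 22323, 27099 and 48 and adipocyte sums 788, 3396 and 8188 in the Mrps12+/+ livers. In Mrps12ep/ep livers they reached at most 180 and 1269. The part of muscle and fat RNA in Cpt1b was not tested. Bbox1, which makes carnitine from its precursor, gave 6367.3, 8366.0 and 5876.5 in Mrps12+/+, 6927.7, 8669.5 and 7583.8 in Mrps12ep/ep and 9498.7, 9463.3 and 8704.6 in Mrps12ha/ha livers (log2 fold change 0.44 ± 0.14 SE, adjusted p = 0.228 for Mrps12ha/ha against Mrps12+/+).

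A cluster on chromosome 19 holds 5 genes that resemble organic anion transporters and varied widely among livers, with genotypes overlapping in every comparison. These genes, Slc22a26, Slc22a27, Slc22a28, Slc22a29 and Slc22a30, lie between 7781041 and 8405111 on the minus strand, and apart from the abundant Slc22a30 they were chosen after their values were seen. Slc22a30 gave 6400.2, 5182.5 and 3079.3 in Mrps12+/+, 6807.7, 6022.0 and 6780.4 in Mrps12ep/ep and 5495.5, 7387.7 and 5409.7 in Mrps12ha/ha livers. Slc22a28 gave 550.6, 417.2 and 88.9 in Mrps12+/+, 758.9, 370.8 and 688.0 in Mrps12ep/ep and 318.9, 743.3 and 438.8 in Mrps12ha/ha livers. Both were highest in Mrps12ep/ep mice 1 and 3 and in Mrps12ha/ha mouse 2, and lowest in Mrps12+/+ mouse 3. Slc22a27 gave 194.5, 284.6 and 436.2 in Mrps12+/+, 120.7, 527.6 and 228.6 in Mrps12ep/ep and 454.6, 88.7 and 140.4 in Mrps12ha/ha livers. Slc22a29 gave 149.0, 170.6 and 116.6 in Mrps12+/+, 171.7, 281.2 and 157.6 in Mrps12ep/ep and 326.1, 49.8 and 68.6 in Mrps12ha/ha livers. These 2 genes had their 2 highest values in Mrps12ep/ep mouse 2 and Mrps12ha/ha mouse 1 and their lowest in Mrps12ha/ha mouse 2. Slc22a26 was the scarcest, from 23.9 to 92.1.

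Genes known to differ between the sexes in mouse liver varied among the same livers, although all mice were male. The 12 listed female-biased genes summed to 14774 in Mrps12ep/ep mouse 2 and 20014 in Mrps12ha/ha mouse 1, the highest of the 9 livers. Their sums ran from 2252 to 5505 in Mrps12+/+, 2186 to 14774 in Mrps12ep/ep and 5952 to 20014 in Mrps12ha/ha. Every Mrps12ha/ha liver thus lay above every Mrps12+/+ liver in this sum, which was not tested. Of all genes 19.9% had groups without overlap in that comparison. Of the 12 genes 6 were tested in liver and 0 passed. The 10 male-biased genes were lowest in Mrps12ep/ep mouse 2 and Mrps12ha/ha mouse 1, 257132 and 199104. They were highest in Mrps12ep/ep mouse 1 and Mrps12ha/ha mouse 2, 567195 and 616944. In Mrps12ep/ep mouse 3 they summed to 469701, and in Mrps12+/+ mouse 1 to 492426. The male-biased sums of Mrps12ha/ha livers, 199104 to 616944, overlapped with those of Mrps12+/+ livers, 346823 to 492426. Reads of the chromosome 19 members may have been divided between neighbours, since 38.7% of the 31-base words of Slc22a29 occur in Slc22a27 and 67% of those of Slc22a28 occur in Slc22a30. The likeness within each pair is therefore uncertain, and the part of shared reads in it was not tested.

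**Figure D5:**
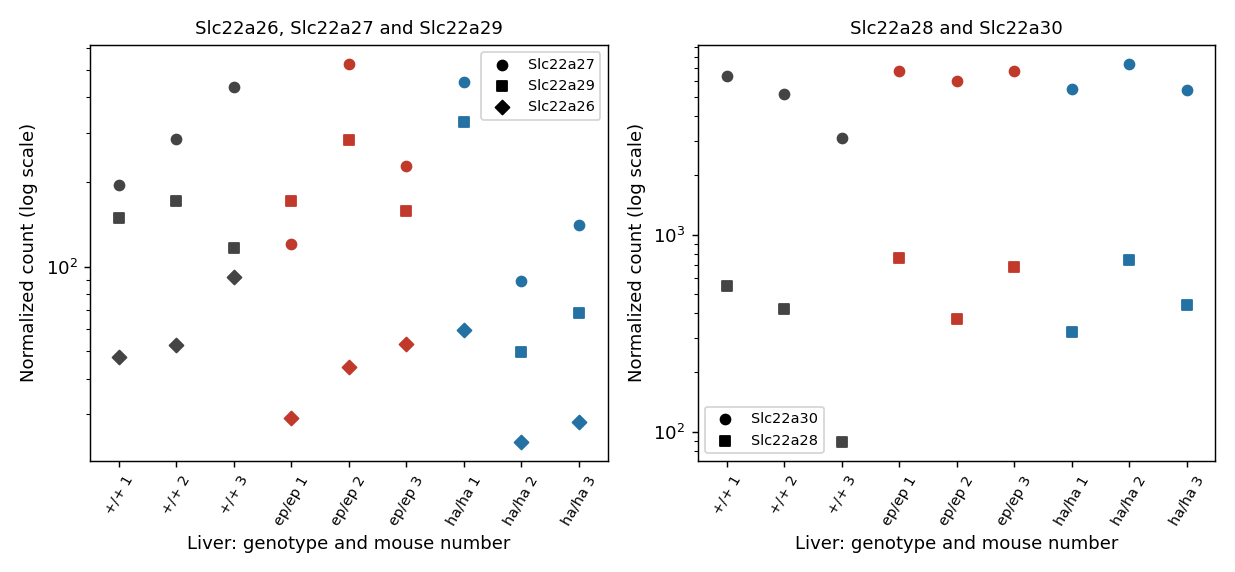
Normalized counts of 5 chromosome 19 members in the 9 livers, on a log axis, with 1 symbol per gene and colours for the genotypes. Slc22a27 and Slc22a29 (left) are high in Mrps12ep/ep mouse 2 and Mrps12ha/ha mouse 1, and Slc22a28 (right) is lowest in Mrps12+/+ mouse 3 at 88.9.

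The partners of these carriers were counted from lists chosen for their known roles. Of 15 bile salt and drug transport genes, 11 were tested in heart and 13 in liver and 0 passed in any comparison. At an unadjusted p under 0.05 there were, of 13 in liver, 2 higher and 0 lower in Mrps12ha/ha against Mrps12+/+, 2 higher and 0 lower in Mrps12ep/ep against Mrps12+/+ and 2 higher and 1 lower in Mrps12ha/ha against Mrps12ep/ep, beside 14.1%, 9.74% and 8.62% of all genes. Of 11 in heart there were 0 higher and 1 lower, 0 and 0, and 1 higher and 0 lower, beside 19.7%, 1.69% and 17.9%. The lowest adjusted p in liver was that of Abcc6, an ATP-driven exporter of the hepatocyte. It gave 6750.0, 7804.8 and 6301.2 in Mrps12+/+, 8350.5, 8611.7 and 8287.4 in Mrps12ep/ep and 9434.5, 11351.9 and 8920.9 in Mrps12ha/ha livers, in that order without overlap (log2 fold change 0.51 ± 0.12 SE, adjusted p = 0.134 for Mrps12ha/ha against Mrps12+/+). Slc10a1, the sodium-dependent bile acid carrier that works beside Slco1b2, gave 22900.2, 35024.7 and 24040.7 in Mrps12+/+, 20068.0, 28426.8 and 21619.5 in Mrps12ep/ep and 31145.2, 36546.9 and 33296.4 in Mrps12ha/ha livers. The Mrps12ha/ha livers lay above those of Mrps12ep/ep (log2 fold change 0.54 ± 0.19 SE, adjusted p = 0.509) and overlapped with those of Mrps12+/+. Abcb11 was higher in Mrps12ep/ep than in Mrps12+/+ livers (log2 fold change 0.80 ± 0.29 SE, adjusted p = 0.458). Its counts were 18732.6, 19408.6 and 8286.4 in Mrps12+/+ and 25815.8, 28755.0 and 21555.2 in Mrps12ep/ep livers. The lowest was that of Mrps12+/+ mouse 3, the liver with the high acute phase sum, which enlarges the difference. Slc51b was lower in Mrps12ha/ha than in Mrps12ep/ep livers (log2 fold change -1.58 ± 0.55 SE, adjusted p = 0.509). Slc47a1 was higher in Mrps12ha/ha than in Mrps12+/+ livers (log2 fold change 0.32 ± 0.12 SE, adjusted p = 0.285), and lower in hearts (log2 fold change -0.31 ± 0.14 SE, adjusted p = 0.25).

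Of 12 receptors and factors that act on these transporters, 10 were tested in heart and 12 in liver, and 0 passed. At an unadjusted p under 0.05 in liver 3 were higher and 1 lower in Mrps12ha/ha against Mrps12+/+, 1 higher and 1 lower in Mrps12ep/ep against Mrps12+/+ and 1 higher and 2 lower in Mrps12ha/ha against Mrps12ep/ep, where 14.1%, 9.74% and 8.62% of all genes were. In heart, in the same order, 1 was higher and 2 lower, 0 and 0, and 1 higher and 2 lower, where 19.7%, 1.69% and 17.9% of all genes were. Cebpa, a factor of hepatocyte differentiation, gave 8165.4, 12004.8 and 7652.9 in Mrps12+/+, 10500.8, 11768.7 and 13361.0 in Mrps12ep/ep and 16189.0, 20125.9 and 18358.5 in Mrps12ha/ha livers, and all Mrps12ha/ha livers were above the rest (log2 fold change 1.0 ± 0.18 SE, adjusted p = 0.0935 against Mrps12+/+). Ahr, the receptor for dioxins and other aromatic ligands, gave 2429.8, 2193.8 and 5057.1 in Mrps12+/+, 1637.6, 1831.5 and 1993.1 in Mrps12ep/ep and 1280.5, 1014.9 and 1102.1 in Mrps12ha/ha livers (log2 fold change -1.41 ± 0.27 SE, adjusted p = 0.111 for Mrps12ha/ha against Mrps12+/+). In hearts Ahr lay the other way, with 161.9, 189.5 and 169.8 in Mrps12+/+, 249.6, 145.6 and 246.1 in Mrps12ep/ep and 565.1, 338.3 and 379.0 in Mrps12ha/ha (log2 fold change 1.26 ± 0.26 SE, adjusted p = 0.17 for Mrps12ha/ha against Mrps12+/+). Nr0b2, the bile acid induced repressor SHP, gave 2301.1, 2099.2 and 812.8 in Mrps12+/+ livers, and in Mrps12ep/ep livers 3000.1, 5589.1 and 3058.4 against 1794.5, 1823.0 and 1759.2 in Mrps12ha/ha (log2 fold change -1.05 ± 0.38 SE, adjusted p = 0.509). Of 9 thyroid hormone genes 8 were tested in heart and 7 in liver, and of 12 prostaglandin genes 10 in liver, and 0 passed in each.

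The rest of the family was scarce. Slc22a16, Slc22a19, Slc22a20 and Slco6c1 were at 0 in every heart and every liver. Slc22a6, Slc22a22 and Slco1a5 were at 0 in all hearts only, and Slco6d1 in all livers only. A count of 0 means that no read was found, which can happen when up to 3 reads are expected. In normalized counts 3 reads are 1.74 to 9.06 in hearts and 2.05 to 7.14 in livers. Slc22a30 and Slc22a7, both abundant in liver, reached 21.1 and 6.9 in hearts, and Slco1a6 reached 11.6 in livers. Members not yet named, Slc22a13 and Slco4c1, reached at most 5.1. The kidney carriers Slc22a6, Slc22a8 and Slc22a12 reached at most 18.2 in any library, and of 7 kidney proximal tubule markers 4 were at 0 in every heart and 3 in every liver. Slc22a14 was 31.1 in the liver of Mrps12ep/ep mouse 3, from 14 reads, and at most 1.6 in the other livers, and in hearts it reached 23.8 in Mrps12ep/ep mouse 2. Slco5a1 was 19.6 and 31.5 in the livers of Mrps12+/+ mice 1 and 2 and at most 3.1 in the others, and these 2 livers were those with the high skeletal muscle sums, whose part in it was not tested. Slco4a1, Slc22a21, Slc22a17 and Slco3a1 were tested in liver at means of 12.3, 35.3, 74.4 and 167.3, Slc22a15 at 841.9, and none had groups that did not overlap.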

How the data were processed

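Per the labels, 54 libraries of total RNA came from 18 tissue samples, with 3 technical libraries each. The authors trimmed reads with Trim Galore 0.4.1 and cutadapt 1.18, checked them with FastQC 0.11.8, pooled libraries, quantified GENCODE vM21 transcripts (GRCm38.p6) with Salmon 1.1.0 by strand, and normalized gene counts with DESeq2 within each tissue, without mitochondrial transcripts. The deposited values are such normalized counts, printed with comma separators and handled here as a score. Low values were whole multiples of 1 step in each column (100.0%), which gave the reads. Tables of the authors' own comparisons (fold changes and p-values) were not used.

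Values were log2-transformed after adding 1 and fitted with limma 3.58.1 in R 4.3.3 (lmFit, eBayes with trend, 3 genotypes of a tissue together), for genes with a mean of at least 10, with Benjamini-Hochberg adjustment over all of them and a threshold of 0.05. Log2 fold changes are on this scale and understate changes of low genes. Permutation tests were exact and two-sided. The fit was tested on simulated data. Python 3.11.15 did the rest. Levels per kilobase used the longest coding transcript. Words of 31 bases were compared between the transcripts of all genes. Values in every mouse are given for the 6 highest members of each tissue, members with an unadjusted p under 0.05 and no overlap, and 8 transporters of known substrate. The values of 1 member are not reported here. The members, lists and tests were chosen with earlier results of these data known. The limma p-values set a difference of means against a spread between mice that the 3 genotypes of a tissue share. With 3 mice per group that spread rests on few animals. Alternatives were pseudocounts of 0.1 and 8, no filter, a mean of at least 50, quantile normalization, only the compared genotypes, array weights, the mouse number as a block, leaving out each mouse and, added after the data were seen, limma-voom.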

Additional observations from a re-analysis of the deposited data

Results flagged for a closer look

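Slc22a23 had the opposite order in heart and liver when Mrps12ha/ha was compared with Mrps12ep/ep. Its log2 fold change was -0.72 in hearts, where every Mrps12ha/ha mouse lay below every Mrps12ep/ep mouse, and 0.20 in livers, where every Mrps12ha/ha mouse lay above. The difference between the tissues was not tested, since they were normalized separately, and neither value passed the threshold in its own tissue.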

How the results depend on the processing

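The number of members called was 0 in all 6 comparisons and stayed at 0 with pseudocounts of 0.1 and 8, with no filter on low values, with a mean of at least 50, with quantile normalization, with only the compared genotypes in the fit and with limma-voom. Array weights raised it to 5 in heart for Mrps12ha/ha against Mrps12+/+ and to 7 for Mrps12ha/ha against Mrps12ep/ep, and the cause was not tested. They also moved the log2 fold change of heart Slc22a5 in Mrps12ha/ha against Mrps12ep/ep from 0.28 to 0.18 and that of liver Slc22a7 in Mrps12ha/ha against Mrps12+/+ from 1.41 to 0.89. Leaving out 1 mouse at a time gave 0 to 3 and 0 to 5 in these comparisons, with calls only when Mrps12ha/ha mouse 2 was left out, and 0 to 0 in the other 4. Of the member differences without overlap or with an unadjusted p under 0.05, 0 changed sign under any of these settings. With the mouse number as a replicate block 0 members were called in every comparison. The numbers share no stated litter or day. Deviations of same-numbered mice correlated at -0.231 to 0.578 in heart and -0.133 to 0.164 in liver, with 2 of 9 pairs above 0.1 in each tissue. In both tissues these were mice 1 and 2 of Mrps12+/+ and Mrps12ep/ep (0.578 and 0.409 in heart, 0.164 and 0.128 in liver). Mice correlated best with their own number in 6 and 5 of 18 cases. These values cannot decide whether the numbers pair mice, because deviations from a mean of 3 mice depend on each other. The planned fits with edgeR and DESeq2 on recovered reads were not run, because the deposited values were handled as a score, and limma-voom was run on those reads in their place. The depth of the shallowest heart sets a floor of 9.06 normalized counts for 3 reads, so differences of members near that level were not detectable there.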
